A study of Mus musculus with 12 samples.

Results

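The mRNA levels of 10 genes of the NF-kB system were followed in mIMCD3 cells, an immortalised mouse kidney line of inner medullary collecting duct epithelium. The genes were listed by name, with no threshold on their values, at a time when earlier results of these data were known. They are the 5 NF-kB subunits (Rela, Rel, Relb, Nfkb1 and Nfkb2), 3 classical inhibitors of the IkB family (Nfkbia, Nfkbib and Nfkbie), the atypical IkB protein Bcl3 and the ubiquitin-editing inhibitor Tnfaip3. They make up 10 of the 27179 genes in the deposited table, and all 10 passed the filter on low values that left 13939 genes for testing. On the GRCm38.p6 build of the RefSeq gene table, the subunit genes lie at chr19:5637442-5648134 on the plus strand (Rela), chr11:23736847-23770969 on the minus strand (Rel), chr7:19606217-19629438 on the minus strand (Relb), chr3:135584655-135691969 on the minus strand (Nfkb1) and chr19:46300994-46312400 on the plus strand (Nfkb2). The inhibitor genes lie at chr12:55489409-55492647 on the minus strand (Nfkbia), chr7:28758251-28766644 on the minus strand (Nfkbib), chr17:45555700-45563169 on the plus strand (Nfkbie), chr7:19808462-19822824 on the minus strand (Bcl3) and chr10:19000910-19015410 on the minus strand (Tnfaip3).

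The cells fell into 4 groups of 3 libraries. The first was an Actr3 knockout line given ciliobrevin D, which inhibits cytoplasmic dynein, at 0.5 µM. The second was an untreated double knockout line for Actr3 and Ift88 (dKO below), and the third was the Actr3 knockout line without ciliobrevin D (Actr3 KO). The fourth was a wild-type control line. Actr3 encodes a core subunit of the Arp2/3 complex, which nucleates branched actin filaments, and Ift88 encodes an intraflagellar transport protein needed to build the primary cilium. All groups grew for 48 h to confluence with 10% fetal calf serum and were then starved of serum for 24 h, controls included. Ciliobrevin D was present during starvation, and cells without it received solvent. Each knockout genotype was represented by 1 cell line. The control titles name 1 line, but 1 of the 3 control columns carries another line number and may come from a second control line. A difference between genotypes cannot be told apart from a difference between lines, and the ciliobrevin D comparison was made within the Actr3 knockout line. Treated and untreated libraries of that line still differed on chromosome 5, which holds no member. The median log2 difference of its 871 tested genes was 0.22 with ciliobrevin D against Actr3 KO. It was -0.24 in Actr3 KO against control and -0.02 with ciliobrevin D against control. The part of this shift in the results was not tested. Nothing in the labels ties replicate libraries to separate cultures, and the p-values then measure only the spread between these libraries, which may be technical. In bulk RNA, fewer cells of a kind and less RNA per cell cannot be told apart.

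NF-kB transcription factors are dimers of 5 related subunits that share a DNA-binding Rel homology domain. In resting cells, IkB proteins hold the dimers in the cytoplasm; signals from cytokine and pathogen receptors activate the IkB kinases, IkB is degraded and the dimers enter the nucleus. Nfkbia, Nfkbie, Tnfaip3, Bcl3, Relb, Nfkb1 and Nfkb2 are well-known transcriptional targets of NF-kB itself, so that the pathway writes both its own inhibitors and part of its own subunits, and in kidney epithelium the pathway is best known for inflammatory gene expression.

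The promoter windows of 4 members with a feedback role are shown because these genes are known NF-kB targets, which makes their motif content of interest beside their levels. RefSeq windows on the GRCm38.p6 build were matched for 8 of the 10 members (Rela, Rel, Nfkb2, Nfkbia, Nfkbib, Nfkbie, Bcl3 and Tnfaip3), and each runs from 250 bases before to 50 bases after an annotated transcription start. The windows are chr12:55492598-55492897 on the minus strand for Nfkbia, chr17:45555450-45555749 on the plus strand for Nfkbie, chr10:19015361-19015660 on the minus strand for Tnfaip3, and chr19:46304487-46304786 on the plus strand for Nfkb2. They read 5′ to 3′ on the gene's strand, with every match to the wide form of the kappaB consensus motif, on either strand, in capitals. Neighbouring matches may overlap and then form 1 longer run of capitals.
Nfkbia promoter: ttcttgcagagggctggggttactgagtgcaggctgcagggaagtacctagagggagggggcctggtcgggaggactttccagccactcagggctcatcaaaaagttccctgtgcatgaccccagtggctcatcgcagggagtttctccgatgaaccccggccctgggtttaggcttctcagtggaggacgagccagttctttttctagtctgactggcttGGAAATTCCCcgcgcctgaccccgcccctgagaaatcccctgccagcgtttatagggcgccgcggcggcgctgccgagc
Nfkbie promoter: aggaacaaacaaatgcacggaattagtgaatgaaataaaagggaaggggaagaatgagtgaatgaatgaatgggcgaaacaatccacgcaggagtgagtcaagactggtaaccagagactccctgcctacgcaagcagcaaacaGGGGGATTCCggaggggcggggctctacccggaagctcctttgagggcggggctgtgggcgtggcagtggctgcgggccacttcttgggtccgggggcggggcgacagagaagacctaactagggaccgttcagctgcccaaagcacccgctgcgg
Tnfaip3 promoter: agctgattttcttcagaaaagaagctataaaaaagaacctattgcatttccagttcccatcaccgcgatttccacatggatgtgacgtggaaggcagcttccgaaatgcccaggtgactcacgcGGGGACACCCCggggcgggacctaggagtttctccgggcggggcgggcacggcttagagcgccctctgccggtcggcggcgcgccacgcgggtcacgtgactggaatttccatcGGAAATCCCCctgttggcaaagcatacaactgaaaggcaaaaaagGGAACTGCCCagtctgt
Nfkb2 promoter: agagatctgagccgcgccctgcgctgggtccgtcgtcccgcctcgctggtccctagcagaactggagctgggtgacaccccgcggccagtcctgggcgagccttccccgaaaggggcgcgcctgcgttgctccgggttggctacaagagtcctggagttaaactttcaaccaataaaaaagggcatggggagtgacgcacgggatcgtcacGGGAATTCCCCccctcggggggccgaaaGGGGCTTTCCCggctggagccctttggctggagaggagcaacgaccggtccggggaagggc

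The Nfkbia window held GGAAATTCCC, which begins 29 bases before the start site. The Nfkbie window held GGGGGATTCC, 106 bases before the start site. The Nfkb2 window held GGGAATTCCC at 39 and GGGGCTTTCC at 11 bases before the start site. The Tnfaip3 window held GGAAATCCCC at 12 and GGGACACCCC at 125 bases before its start site, and GGAACTGCCC at 33 bases after it. Where matches overlap, a single match is named. Elsewhere among the members, the Rel window held GGGAAATCCC at 92 bases before its start site and the Rela window held GGGCCTCTCC at 218. The Bcl3 window held GGGTGGCCCC at 85 bases before its start site and GGGAAGTCCC at 2 bases after it. Counting every window, since some genes have more than 1 start site, the wide form (GGRNNNYYCC) was present in 10 of 11 member windows. Across the genome it was present in 26.8% of 32851 windows of the same length. By gene it was present in 7 of 8 members, against 29.4% of 27025 genes. A stricter form of the motif (GGGRNNYYCC) was present in 8 of 11 member windows, against 8.46% of all windows, and in 6 of 8 members, against 9.55% of genes. R stands for A or G, Y for C or T, and N for any base. The member windows are not all separate, since windows 2 and 3 of Nfkb2 overlap and share the match GGGACTTTCC. The Nfkbib window held neither. The background shares cover all genes with a RefSeq window, whether or not they were tested here, and several members are known NF-kB targets. The shares are therefore a description and no test. A match describes the letters of the window and says nothing of binding.

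Library depth ran from 28902562 to 38077987 reads over all 12 libraries, recovered from the deposited normalized counts, with controls deepest. Actr3 averaged 1573 ± 180.2 normalized counts with ciliobrevin D, 871 ± 38.6 in dKO, 1218 ± 111 in Actr3 KO and 8336 ± 293 in control cells (SD, n = 3 each), so the edited gene was low in every library labelled as knockout. Ift88 averaged 604 ± 29.8 in dKO cells and 617 ± 34.2 in Actr3 KO cells, so its mRNA level does not check the second edit. Of 13 collecting duct markers, 12 were tested. Their summed level lay between 86450 and 98232 normalized counts in the 3 knockout groups and between 120808 and 130440 in controls. Single markers moved in both directions. In Actr3 KO against control 2 were called higher and 7 lower (75% called, against 69.8% of all tested genes). In dKO against Actr3 KO the split was 7 and 3 (83.3% against 65.7%), and with ciliobrevin D against Actr3 KO 4 and 4 (66.7% against 65.5%). With ciliobrevin D, Krt19 averaged 13623 counts against 4343 in Actr3 KO, while Cdh1 averaged 6278 against 13980. Aqp2, the vasopressin-regulated water channel, was at or near 0 throughout. Of 9 leukocyte markers, 3 were tested, with sums of 1186 to 1508 with ciliobrevin D, 3251 to 3376 in dKO, 4248 to 4607 in Actr3 KO and 3112 to 3611 in control cells. The 3 tested genes did not move alike. The macrophage colony-stimulating factor receptor Csf1r averaged 1012 counts with ciliobrevin D, 3182 in dKO, 4318 in Actr3 KO and 3202 in controls. The macrophage marker Cd68 averaged 332 ± 23.5 with ciliobrevin D, 139 ± 11.7 in dKO, 161 ± 6.05 in Actr3 KO and 161 ± 16 in controls, so that it was higher with ciliobrevin D than in Actr3 KO, as most of the members were (log2 1.04, adjusted p = 3.49e-08). The pan-leukocyte marker Ptprc averaged 13, 4.71, 1.66 and 26.3 counts in the same groups, and it too was higher with ciliobrevin D than in Actr3 KO (log2 2.39, adjusted p = 7.88e-06). No endothelial marker passed the filter, and the fibroblast list summed to between 107 and 182. The part of any of these in the results below was not tested.

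Ranked per kilobase of exon, Rela was the most abundant subunit in all 4 groups. Its level was 3767 ± 216 normalized counts per kilobase with ciliobrevin D, 2419 ± 23.9 in dKO, 2302 ± 78.6 in Actr3 KO and 2150 ± 30.8 in control cells. Nfkb2 followed, with 2132, 1655, 1488 and 959 per kilobase in the same groups. On this scale Relb stood above Nfkb1 with ciliobrevin D (818 against 659 per kilobase) and in dKO (528 against 346). It stood below Nfkb1 in Actr3 KO (475 against 578) and in controls (223 against 559). The lengths are unions of all annotated exons, 12061 bases for Nfkb1 and 3885 for Relb, and may exceed those of the mRNAs present. Without a length correction Nfkb1 averaged 7953, 4177, 6974 and 6747 counts in the 4 groups, and Relb 3176, 2050, 1844 and 866. Ranks between genes therefore depend on the length used. Rel was the least abundant subunit per kilobase, between 34.1 and 79.8. Among the inhibitors Nfkbia was highest in every group, at 3373 ± 426, 1410 ± 53.4, 1273 ± 59.9 and 991 ± 174 per kilobase, and Nfkbie was the lowest in controls, at 62.4 ± 4.98 per kilobase. All further levels are normalized counts without a length correction, and are compared only within a gene.

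**Figure D1:**
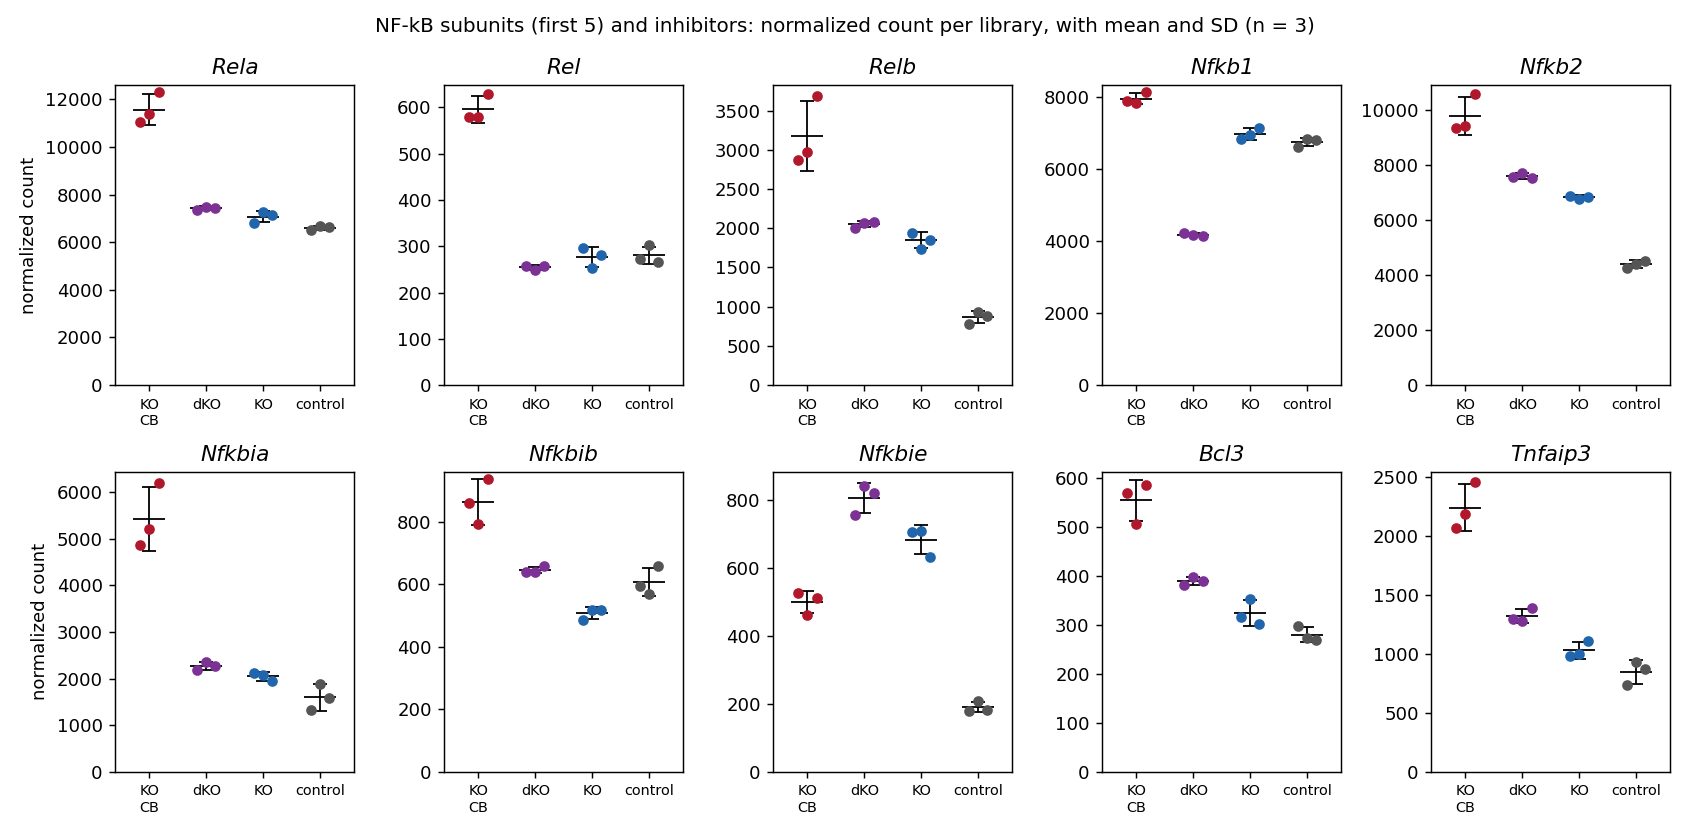
Normalized counts of the 10 genes in each of the 12 libraries, one panel per gene, with groups from left to right ciliobrevin D-treated Actr3 KO, dKO, Actr3 KO and control; points are libraries and bars are group means with SD. Nfkb1 is lowest in the 3 dKO libraries (4137 to 4225), Nfkbie is lowest in controls (180.4 to 208), and 9 of the 10 genes are highest in the ciliobrevin D-treated libraries.

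Treatment of the Actr3 knockout line with ciliobrevin D was accompanied by higher mRNA of 9 of the 10 members and lower mRNA of Nfkbie. All 10 were called by limma on log2(normalized count + 1) at a Benjamini-Hochberg adjusted p under 0.05 over all tested genes, where 65.5% of all tested genes were called, 32.7% higher and 32.9% lower. The median log2 difference of the members was 0.77, against -0.02 over all tested genes. The groups did not overlap for any of the 10 members, which was also so for 68.1% of tested genes.

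Nfkbia, the IkB protein that is degraded and then resynthesised in the classical response, had the largest log2 difference of the members. It had 4875, 5219 and 6196 normalized counts with ciliobrevin D, 2181, 2352 and 2277.5 in dKO, 2129, 2077 and 1942 in Actr3 KO, and 1326, 1886 and 1573 in control cells. All treated libraries lay above every other library, and the 9 others lay within 1326 to 2352. With ciliobrevin D against Actr3 KO its log2 difference was 1.40 ± 0.09 (SE; adjusted p = 3.58e-11), a 2.65-fold higher mean. Tnfaip3, which removes activating ubiquitin chains from signalling proteins upstream of the IkB kinases, had 2075, 2186 and 2462 counts with ciliobrevin D, 1298, 1278 and 1387.5 in dKO, 984, 997 and 1112 in Actr3 KO, and 735, 928 and 876 in control cells. Its 4 groups were stacked in that order with no overlap. With ciliobrevin D it was 2.17-fold higher than in Actr3 KO (log2 1.12 ± 0.08, adjusted p = 1.09e-10).

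Rel, a subunit with a transactivation domain that is best known from lymphoid cells, had 579, 579 and 629.7 counts with ciliobrevin D, 257, 249 and 258 in dKO, 296, 254 and 281 in Actr3 KO, and 271, 302 and 267 in control cells. The treated libraries stood alone, and the 9 others lay within 249 to 302. The ciliobrevin D difference was 1.10 ± 0.09 on the log2 scale (adjusted p = 4.85e-10), a 2.15-fold higher mean. Rela, the main transactivating partner of the classical dimer, had 11037, 11363 and 12314 counts with ciliobrevin D, 7350.3, 7492 and 7456 in dKO, 6802, 7267 and 7146 in Actr3 KO, and 6499, 6682 and 6632 in control cells. All treated libraries lay above the 9 others, of which the dKO libraries were the highest. Its log2 difference with ciliobrevin D against Actr3 KO was 0.71 ± 0.05 (adjusted p = 1.24e-10), a 1.64-fold higher mean.

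Bcl3, an IkB-related nuclear cofactor, and Nfkbib, a more stable IkB protein, were both higher with ciliobrevin D. Bcl3 ranged from 506 to 585 counts in treated libraries and from 302 to 353 in Actr3 KO libraries (log2 0.77 ± 0.09, adjusted p = 8.41e-08). Nfkbib ranged from 793 to 937 in treated libraries and from 487 to 519 in Actr3 KO libraries (log2 0.76 ± 0.07, adjusted p = 1.36e-08). Nfkb1, whose product is processed to a subunit without a transactivation domain, moved least, by 0.19 ± 0.05 (adjusted p = 0.00111; adjusted p = 0.606 after quantile normalization, with a range of 1.83e-05 to 0.606 over the alternatives).

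**Figure D2:**
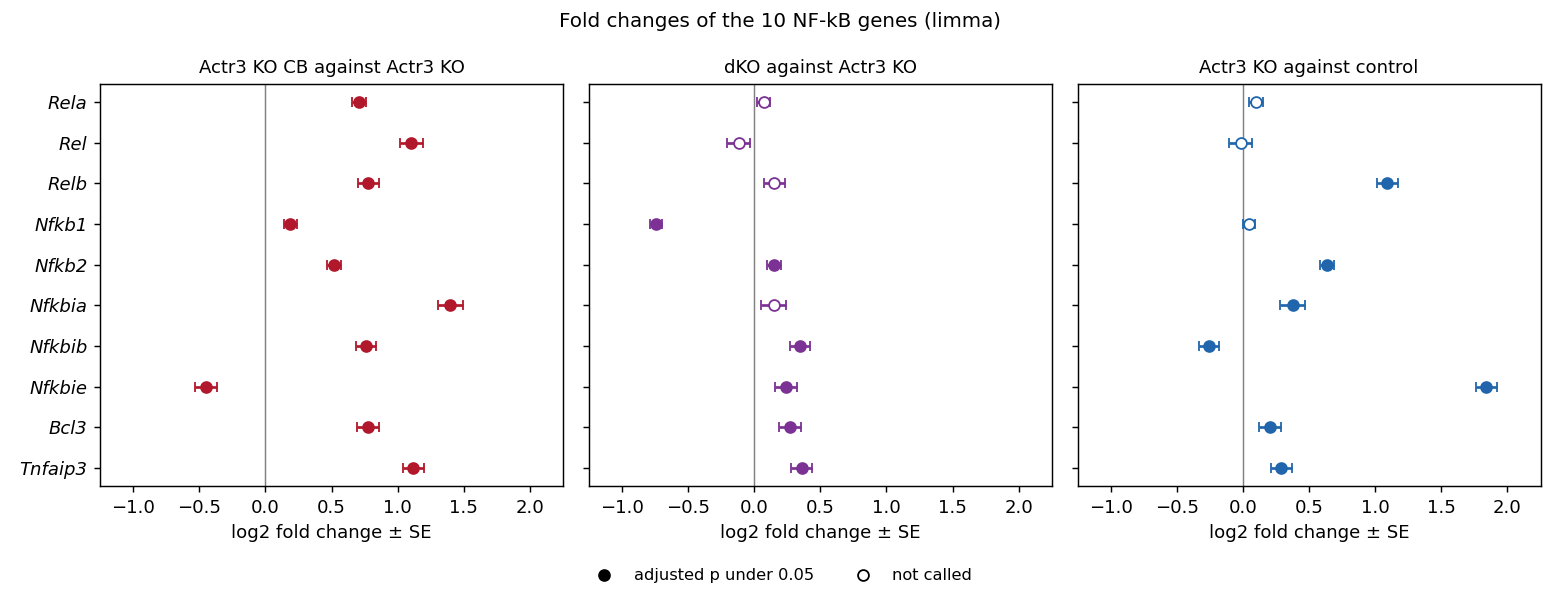
Log2 differences of the 10 genes with SE bars in 3 comparisons, from left to right ciliobrevin D-treated Actr3 KO against Actr3 KO, dKO against Actr3 KO and Actr3 KO against control; filled points were called. Nfkbie is the gene with the highest value against control (1.84) and the only one below 0 with ciliobrevin D (-0.45).

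Nfkbie, the third IkB protein, moved against the other members with ciliobrevin D. It had 526, 463 and 512 counts with ciliobrevin D, 757, 842 and 820.3 in dKO, 705, 710.4 and 634 in Actr3 KO, and 180.4, 208 and 182 in control cells. Every knockout library lay far above the controls, and the treated libraries lay below the 6 untreated knockout libraries. The treated line was lower than the untreated line (log2 -0.45 ± 0.08, adjusted p = 6.54e-05), a ratio of 0.732. Against dKO the treated line was lower too (log2 -0.69 ± 0.08, adjusted p = 1.83e-07). Over the 4 groups the order was control, ciliobrevin D-treated Actr3 KO, Actr3 KO and dKO from low to high, and every neighbouring pair was called; the call of dKO over Actr3 KO was lost without the third Actr3 KO library (log2 0.19, adjusted p = 0.0831) and without the second dKO library (log2 0.21, adjusted p = 0.0637). The spread of its group means, 2.08 on the log2 scale, was the widest among the members, and 7.46% of tested genes had a wider one.

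The subunits of the alternative pathway, in which Nfkb2 is processed and pairs with Relb, were higher in the Actr3 knockout line than in controls, before any ciliobrevin D. Relb had 2871, 2976 and 3682 counts with ciliobrevin D, 2006, 2069 and 2074 in dKO, 1943, 1741 and 1849.6 in Actr3 KO, and 779.5, 937 and 881 in control cells. Controls lay below every knockout library, and the dKO libraries lay above the Actr3 KO libraries without being called apart (adjusted p = 0.0938, with a range of 0.0177 to 0.281 over the alternatives). Actr3 KO exceeded control 2.13-fold (log2 1.09 ± 0.08, adjusted p = 1.02e-10), and the treated line exceeded Actr3 KO 1.72-fold (log2 0.78 ± 0.08, adjusted p = 2.40e-08). Nfkb2 had 9341, 9393 and 10584 counts with ciliobrevin D, 7545, 7709 and 7507 in dKO, 6875, 6739 and 6846 in Actr3 KO, and 4255, 4408 and 4522 in control cells. The groups were ordered alike and none overlapped. Actr3 KO exceeded control 1.55-fold (log2 0.63 ± 0.05, adjusted p = 8.56e-10), and the treated line exceeded Actr3 KO 1.43-fold (log2 0.52 ± 0.05, adjusted p = 2.49e-08; log2 0.32 after quantile normalization).

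Nfkb2 is the 1 member whose gene overlaps others in the annotation: Psd over 316 bases on the opposite strand, and 4833438C02Rik over 2045 bases. Strand use in counting was not stated. Psd averaged 2759 ± 609 counts with ciliobrevin D, 844 ± 10.1 in dKO, 622 ± 20.5 in Actr3 KO and 992 ± 80.2 in control cells, against 9773, 7587, 6820.3 and 4395 for Nfkb2. Shared reads were not tested. The 4833438C02Rik transcript averaged between 150.2 and 229.6 counts in the 4 groups.

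Between Actr3 KO and control, 7 of the 10 members were called, 6 higher and Nfkbib lower. Over all tested genes 69.8% were called in this comparison, 34.4% higher and 35.4% lower, so the share of members called was near the background. The median member difference was 0.25 on the log2 scale, against 0.00 over all tested genes, and the groups did not overlap for 8 members, against 73.3% of tested genes. Nfkbie led with a 3.59-fold higher mean in Actr3 KO (log2 1.84 ± 0.08, adjusted p = 6.50e-14), ahead of Relb and Nfkb2. Nfkbia was 1.29-fold higher (log2 0.38 ± 0.09, adjusted p = 0.00124) and Tnfaip3 1.22-fold higher (log2 0.29 ± 0.08, adjusted p = 0.00302), and without the first control library these values were 0.25 and 0.19. Nfkbib had 487, 519 and 519 counts in Actr3 KO and 596, 568 and 657 in control cells (log2 -0.25 ± 0.07, adjusted p = 0.00478). The Nfkbib call was lost in the limma fit with a replicate block, which leaves out the unnumbered control library (log2 -0.18, adjusted p = 0.0727). Bcl3 had 315, 353 and 302 counts in Actr3 KO and 297, 272 and 269 in control cells. Its call was close to the threshold (log2 0.21 ± 0.09, adjusted p = 0.0386) and was lost in 9 of 23 alternatives, with a range of 0.0239 to 0.455. Without the control library of uncertain line it had a log2 value of 0.18 (adjusted p = 0.115), and 6 members were called in place of 7. Rela, Rel and Nfkb1 were not called, with log2 values of 0.10, -0.02 and 0.05.

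Between dKO and Actr3 KO the member that stood out was Nfkb1. It had 7898, 7829 and 8133 counts with ciliobrevin D, 4225, 4168 and 4137 in dKO, 6829.7, 6948 and 7146 in Actr3 KO, and 6607, 6836 and 6797 in control cells. The dKO libraries lay below all 9 others, and the Actr3 KO and control libraries overlapped. Nfkb1 was lower in dKO than in Actr3 KO (log2 -0.74 ± 0.05, adjusted p = 1.12e-11), a ratio of 0.599, and lower than in control (log2 -0.69 ± 0.05, adjusted p = 2.65e-11). In all, 6 of the 10 members were called, 5 higher and Nfkb1 lower, against 65.7% of all tested genes called, 32.5% higher and 33.2% lower. The groups did not overlap for 9 members, against 71.2% of tested genes. The 5 higher ones were Tnfaip3 (log2 0.36), Nfkbib (0.34), Bcl3 (0.27), Nfkbie (0.24) and Nfkb2 (0.15), and Rela, Rel, Relb and Nfkbia were not called. The median member difference was 0.15, against -0.01 over all tested genes.

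Nfkb1 and Tnfaip3 lie on chromosomes whose median shifted in the dKO line. The median log2 difference of dKO against Actr3 KO was -0.39 on chromosome 3, where Nfkb1 lies, and 0.40 on chromosome 10, where Tnfaip3 lies. Measured against its chromosome's median, Nfkb1 remained lower by 0.35 (value -0.35, adjusted p = 1.03e-06). Tnfaip3 had a value of -0.07 on the same scale (adjusted p = 0.438, with a range of 3.39e-05 to 0.438 over the alternatives), against 0.36 ± 0.08 (adjusted p = 0.00049) without it. Against control the corresponding dKO values were -0.24 for Nfkb1 (adjusted p = 8.83e-05) and 0.26 for Tnfaip3 (adjusted p = 0.00691), with chromosome medians of -0.44 and 0.40. In the treated line against dKO, the Nfkb1 value was 0.93, or 0.52 with the chromosome median removed, and the Tnfaip3 value was 0.76, or 1.15. The part of a chromosome-wide shift in these values beyond this subtraction was not tested.

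**Figure D3:**
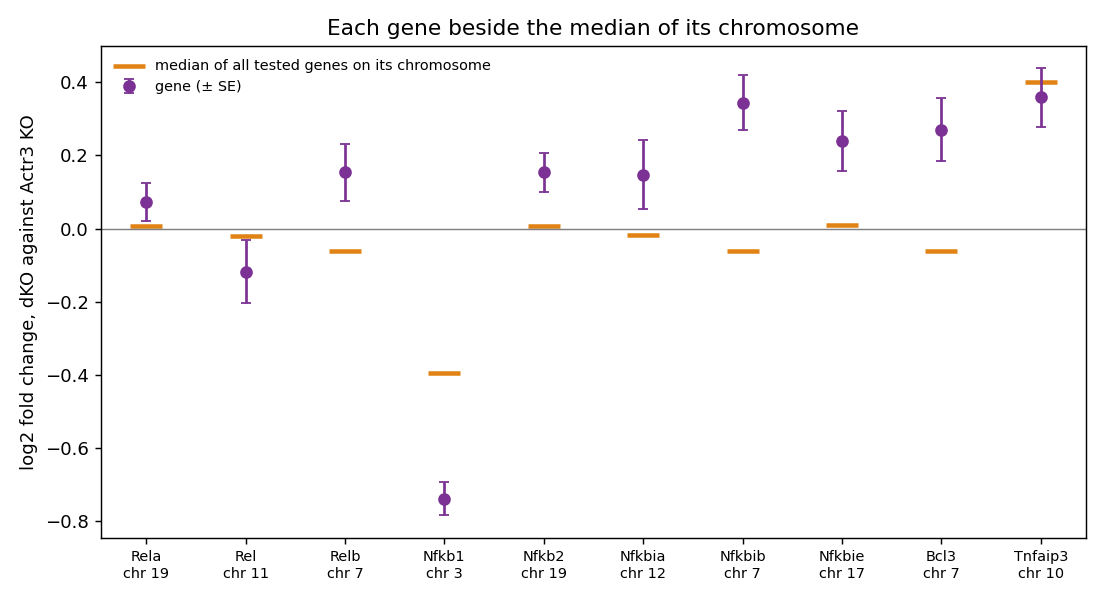
Log2 fold change of dKO against Actr3 KO for each of the 10 genes (points with SE bars), beside the median over all tested genes of its chromosome (orange lines). Chromosome 3 has a median of -0.39, with Nfkb1 below it at -0.74, and chromosome 10 a median of 0.40, with Tnfaip3 at 0.36.

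The remaining comparisons share libraries with those above and are given for the order of levels. Against control, the treated line was higher in all 10 members (65.1% of tested genes called, 33% higher), with no overlap for any member (67.8% of tested genes), between 1.18-fold for Nfkb1 and 3.67-fold for Relb. Against dKO, the treated line was higher in 9 members and lower in Nfkbie (73.4% of tested genes called, 37% higher and 36.3% lower), with no overlap for any member (75.5% of tested genes) and Nfkb1 1.90-fold higher. The dKO line exceeded control in 7 members and was lower in Nfkb1 (67.1% of tested genes called, 32% higher and 35.1% lower), with no overlap for 9 members (72% of tested genes), and Nfkbie was 4.24-fold higher; Rel and Nfkbib were not called. Neighbours in the order of levels that were not called apart were control and Actr3 KO for Rela and Nfkb1, Actr3 KO and dKO for Rela, Relb and Nfkbia, dKO and Actr3 KO and then Actr3 KO and control for Rel, and control and dKO for Nfkbib.

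Genes upstream of the members were described by counts, without a test between lists. The 27 IkB kinase subunits and signalling adaptors were all tested. With ciliobrevin D against Actr3 KO, 12 were called higher and 11 lower (85.2% called, against 65.5% of all tested genes; median 0.11). In dKO against Actr3 KO 12 were higher and 5 lower (63.0% called, near the 65.7% of all tested genes; median 0.11), and in Actr3 KO against control 17 were higher and 4 lower (77.8% called, against 69.8%; median 0.23). With chromosome medians removed, the dKO split was 9 higher and 7 lower. Ikbke, an IkB kinase-related enzyme, averaged 853 ± 42.7 counts with ciliobrevin D, 1446 ± 124 in Actr3 KO and 520.0 ± 10.2 in control cells, so it rose in the knockout and fell with treatment (log2 1.47 and -0.76, adjusted p = 7.33e-14 and 2.51e-09). Tab1, which activates the kinase upstream of the IkB kinases, did likewise, at 1647 ± 138, 2455 ± 68.6 and 1468 ± 6.31 counts. The linear ubiquitin ligase subunit Rnf31 rose in Actr3 KO (1421 ± 56.5 against 848 ± 30.5 counts in controls). The ubiquitin ligase Birc3 fell to 64.1 ± 9.86 counts in dKO, against 489.8 ± 3.75 in Actr3 KO (log2 -2.93, adjusted p = 1.53e-14), while Tab2, an adaptor of the same kinase as Tab1, and the receptor adaptor Myd88 rose by 0.42 and 0.50. Tab2 lies on chromosome 10 like Tnfaip3, and its value was -0.02 with the chromosome median removed (adjusted p = 0.79), against 0.54 for Myd88. The TNF receptor adaptor Traf1 had 51.7, 69.1 and 55.5 counts with ciliobrevin D, against 3.97, 6.21 and 1.91 in Actr3 KO (log2 3.66 ± 0.33, adjusted p = 3.32e-09).

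The further inhibitors and IkB proteins, 17 of 18 tested, were split in both directions: 6 higher and 3 lower with ciliobrevin D (52.9% called, against 65.5% of all tested genes), 6 and 6 in dKO against Actr3 KO, and 7 and 5 in Actr3 KO against control. In the last 2 comparisons 70.6% were called, near the 65.7% and 69.8% of all tested genes. Rnf11 and Tax1bp1, which act with Tnfaip3, and the deubiquitinase Otud7b rose with ciliobrevin D by 0.81, 0.35 and 0.67 on the log2 scale. Nfkbiz, an atypical IkB protein like Bcl3, fell in dKO to 1378 ± 21.1 counts, against 3477 ± 149 in Actr3 KO (log2 -1.33, adjusted p = 9.93e-14). It lies on chromosome 16, whose median was -0.41 in this comparison. Its value was -0.91 with that median removed (adjusted p = 3.63e-11). Rnf11 rose in the same comparison by 0.57. Tnip1, a binding partner of Tnfaip3, rose in Actr3 KO to 3276 ± 39.4 counts, against 1719 ± 122 in controls, and Tax1bp1 fell by 0.63 (adjusted p = 6.14e-10). Tax1bp1 lies on chromosome 6, whose median was -0.42 in this comparison and which holds no member, and its value was -0.23 with that median removed (adjusted p = 0.000491). Nlrc5, known mainly as an activator of MHC class I genes, averaged 95.4 ± 15.8 counts in dKO, 303 ± 21.4 in Actr3 KO and 6.48 ± 1.74 in control cells.

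Of 31 ligands and receptors, 24 were tested. With ciliobrevin D 6 rose and 12 fell (75% called, against 65.5% of all tested genes; median -0.42). In dKO against Actr3 KO 4 rose and 12 fell (66.7% called, near the 65.7% of all tested genes; median -0.28), and in Actr3 KO against control 13 rose and 5 fell (75% called, against 69.8%; median 0.41). Of the TNF receptors, Tnfrsf1b rose in Actr3 KO to 3300.5 ± 189.8 counts, against 766 ± 32.8 in controls (log2 2.10, adjusted p = 6.99e-17). Tnfrsf1a went the other way, with 2923 ± 123 counts in Actr3 KO and 3897 ± 35.0 in controls. Tlr2, a receptor for bacterial lipoproteins, averaged 864 ± 56.1 counts in dKO, 2183 ± 162 in Actr3 KO and 1024 ± 49.5 in controls, and Nod1 and Il1r1 fell in dKO (log2 -2.20 and -1.30). Tlr2 lies on chromosome 3 like Nfkb1. Its value in dKO against Actr3 KO was -1.34, or -0.94 with the chromosome median removed. Il1r1 lies on chromosome 1, whose median was -0.21, and its value was -1.07 with that median removed. Tnfrsf12a, the TWEAK receptor, averaged 15928 ± 1871 counts with ciliobrevin D, 4832 ± 161 in Actr3 KO and 12045 ± 1667 in controls, so it fell in the knockout and rose with treatment. With ciliobrevin D, Il1rl1 rose by 2.07 and the ligand Lta fell by 2.29 on the log2 scale (adjusted p = 3.40e-11 and 3.04e-11).

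Of 34 further NF-kB target genes, 27 were tested. With ciliobrevin D 13 rose and 7 fell (74.1% called, against 65.5% of all tested genes; median 0.16), and in dKO against Actr3 KO 9 rose and 11 fell (74.1% called, against 65.7%; median 0.01). In Actr3 KO against control 9 rose and 17 fell (96.3% called, against 69.8%; median -0.44). Ptgs2, the inducible cyclooxygenase, averaged 4324 ± 941 counts with ciliobrevin D, 129 ± 29.9 in Actr3 KO and 4622 ± 467 in controls, so that it fell in the knockout (log2 -5.17, adjusted p = 6.99e-17) and was higher with treatment (log2 5.05, adjusted p = 8.73e-17). The neutrophil chemokine Cxcl1 (1482 ± 331, 225 ± 6.56 and 2505 ± 242 counts) and the early-response gene Ier3 (10397 ± 1533, 1556 ± 112 and 10872 ± 1364) followed the same order. Cxcl1 lies on chromosome 5. Its log2 values were -3.47 in Actr3 KO against control and 2.69 with treatment, or -3.22 and 2.47 with the chromosome median removed. Among the members, Nfkbib was likewise lower in Actr3 KO than in control and higher with ciliobrevin D, while Nfkbia, Relb, Nfkb2, Bcl3 and Tnfaip3 were higher in Actr3 KO than in control and higher again with ciliobrevin D. In dKO against Actr3 KO, the colony-stimulating factor Csf1 and complement C3 fell (log2 -1.84 and -3.08). Csf1 and C3 were higher in Actr3 KO than in control (log2 1.34 and 3.84). Csf1 averaged 3443 ± 78.0 counts in dKO, 12342 ± 754 in Actr3 KO and 4878 ± 153 in controls. C3 averaged 254 ± 22.6, 2152 ± 246 and 149 ± 16.7 in the same groups. Csf1 lies on chromosome 3 like Nfkb1, and its dKO value was -1.45 with the chromosome median removed. Gadd45b, a stress-response gene, rose in dKO against Actr3 KO (log2 0.87). It lies on chromosome 10, and its value was 0.44 with the chromosome median removed (adjusted p = 1.43e-05).

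**Figure D4:**
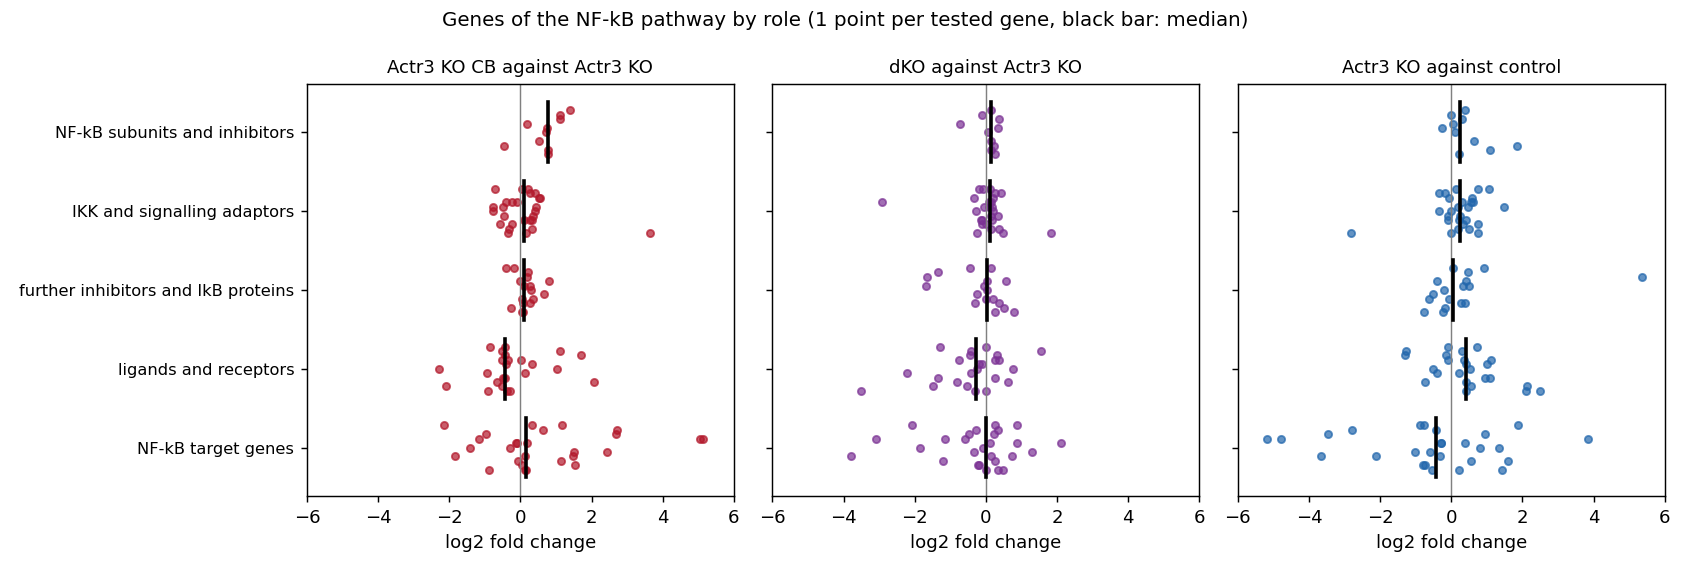
Log2 differences of every tested gene in the members and in 4 further NF-kB lists, by comparison, with the median of each list marked; the comparisons run from ciliobrevin D-treated Actr3 KO against Actr3 KO, through dKO against Actr3 KO, to Actr3 KO against control. The median of the members is 0.77 with ciliobrevin D, against 0.16 for the further target genes, and 0.25 against -0.44 in Actr3 KO against control.

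For the 3 members with the widest range over the groups, the genes with the most similar profile were found by the root mean square (RMS) difference of log2 values over the 12 libraries, each gene centred on itself, among 11053 genes with a mean of at least 100. Nearest to Nfkbie were Arhgap45 (RMS 0.126), Dtna (0.150) and Gbp4 (0.158). Gbp4, an interferon-induced GTPase, averaged 416 ± 15.0 counts with ciliobrevin D, 841 ± 41.0 in dKO, 600.4 ± 44.7 in Actr3 KO and 183 ± 6.83 in control cells. Nearest to Relb were Arl4a (0.153), Zmynd15 (0.160) and Hr (0.165). Nearest to Nfkbia were Gpcpd1 (0.177), Pfkp (0.188) and Pdk1 (0.203). Pfkp is a phosphofructokinase of glycolysis, and Pdk1 inhibits pyruvate dehydrogenase. Pdk1 averaged 4899 ± 390.3 counts with ciliobrevin D, 2362 ± 188 in dKO, 1945 ± 175 in Actr3 KO and 1974 ± 224 in controls. These values describe profiles over 12 libraries, and libraries of a group share their condition.

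**Figure D5:**
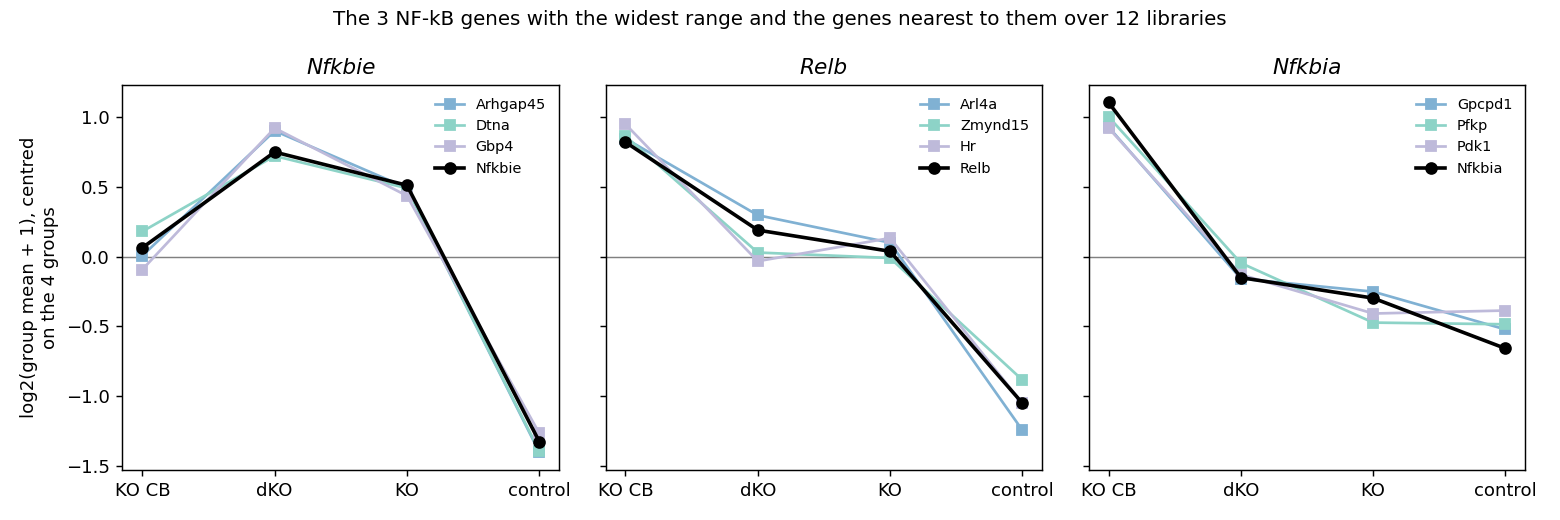
Log2(group mean + 1), centred on the 4 groups, of Nfkbie, Relb and Nfkbia (black) with the 3 genes nearest to each; groups run from left to right as ciliobrevin D-treated Actr3 KO (KO CB), dKO, Actr3 KO (KO) and control. In the Nfkbie panel controls are lowest and dKO highest, and in the Nfkbia panel the treated group stands above the others.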

How the data were processed

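Poly(A) RNA-seq of 12 libraries was analysed from 1 deposited table of 27179 Entrez genes. Per the submitters' processing notes, the tools named are HISAT2 2.2.1, featureCounts 2.0.1, fastp 0.23.2 and DESeq2 2.11.40.7; the builds are mm10 and GRCm38. The deposited values are a signal, namely counts that were normalized per library by the authors, with no length correction. Every value was a whole multiple of 1 step in its column (100% within 0.01 reads), so reads could be recovered by division. IDs were named from RefSeq (25275) and GENCODE (18); 1886 have no name. Exon lengths are GENCODE unions. One control column carries a line and replicate name that match no title and may come from another control line; it was placed in the control group by its control name and has no replicate number.

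Genes with at least 10 normalized counts in at least 3 libraries (13939) were fitted as log2(value + 1) with limma 3.58.1 (trend, R 4.3.3, all 12 libraries in 1 fit, two-sided), over 6 comparisons; calls are Benjamini-Hochberg adjusted p under 0.05. Folds are ratios of group means. The recovered reads were tested with edgeR 4.0.16 and DESeq2 1.42.0 as alternatives. Replicate libraries varied beyond counting noise (chi-square over its degrees of freedom, 4.48 to 16.9). Lists of markers and pathway genes are described by counts, with no list test. Strand use in counting is unstated in the labels. The fit was tested on simulated data. The members and all gene lists were chosen with earlier results of these data known. Beyond the 10 members and the edited genes, up to 3 called genes with the smallest adjusted p were named per pathway list and comparison, and 3 nearest genes for the 3 members with the widest range. Tnfrsf1a was added beside Tnfrsf1b.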

Additional observations from a re-analysis of the deposited data

How the results depend on the processing

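Across 23 alternatives (pseudocounts of 0.5 and 5, other filters, TMM and quantile scaling, chromosome medians removed, edgeR, DESeq2, 2-group fits, a replicate block and 12 fits that each leave out 1 library), the 18 counts of calls all stayed within 1.5 times. Over 60 pairs of member and comparison, 47 kept their direction and their side of the threshold under all 23. Of 1380 such values under an alternative, 14 lost their call, 9 gained one and 3 changed sign. The members called numbered 5 to 8 in Actr3 KO against control (7 reported), 5 to 8 in dKO against Actr3 KO (6 reported) and 9 to 10 with ciliobrevin D against Actr3 KO (10 reported), and edgeR and DESeq2 gave 7 and 6, 6 and 6, and 10 and 10. The sign turned for Rel in Actr3 KO against control, uncalled at -0.02, without the third control library (0.04, adjusted p = 0.737) and without the second Actr3 KO library (0.0449, adjusted p = 0.689); the fits that left out 1 library ranged from -0.0658 to 0.0449. It also turned for Tnfaip3 in dKO against Actr3 KO with chromosome medians removed (-0.0737, adjusted p = 0.438). Calls were lost after quantile normalization for Nfkb1 with ciliobrevin D against Actr3 KO (0.03, adjusted p = 0.606) and for Nfkb2 with ciliobrevin D against dKO (0.10, adjusted p = 0.0627). Quantile normalization instead added calls for Rela and Nfkb1 in Actr3 KO against control (0.24 and 0.18, adjusted p = 0.00012 and 0.000728). The causes were not tested.

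Same-numbered libraries did not deviate together over the tested genes (r from -0.04 to 0.07). These values show no large shared deviation, but they cannot tell whether the numbers mark cultures handled together. With a replicate block, 5 members were called in Actr3 KO against control: Nfkbib (-0.18, adjusted p = 0.0727) and Bcl3 (0.17, adjusted p = 0.156) were not. Replicate intervals cover only 3 libraries a group, and members with the fewest reads, such as Nfkbie and Bcl3 in controls, have the widest relative counting error.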
